A study of Solanum lycopersicum with 21 samples.

Results

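FUL2 and MC, MADS-domain transcription factors (TFs) of the AP1/FUL clade in tomato, were each combined with the SOC1-like protein TM3 and assayed by DAP-seq, in which a TF made in a cell-free system is mixed with fragments of naked genomic DNA and the bound fragments are pulled down and sequenced. The regions described here held a called peak of both proteins with TM3 and none with J or J2, and lay at the ends of the chromosomes. Peaks of the 6 deposited lists that overlapped by at least 1 bp were joined into 26850 regions. Of these, 1707 held a peak of FUL2-TM3 and of MC-TM3 and no peak of FUL2-J, FUL2-J2, MC-J or MC-J2. This is 6.36% of all regions and, read as a background, 35.5% of the 4808 regions with both TM3 peaks. The 1006 members are those of the 1707 with a midpoint under 1 Mb from an end of chromosomes 1 to 12, where the ends are position 0 (left) and the last peak end on the chromosome over the 6 lists (right). Another 670 lay farther from an end and 31 on the unplaced sequence. The members were chosen by the presence of these peaks and by their position, so all values below are descriptions of the same lists and no test is given.

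The study combined FUL2 or MC, which carried a FLAG tag for the pull-down, with J, J2 or TM3 in 6 complexes with 3 libraries each, and 3 libraries of a mixture without plasmid, named input, served as control. All 21 libraries were made from young leaf DNA of wild-type plants of the cultivar Moneyberg. There is 1 list per complex with no value for a single library, so no difference given here has a replicate error. The peak names of a list cite a merge of 2 alignments, and how many of the 3 libraries stand behind it is not known. Intervals of shares are 95% Wilson intervals and cover counting error over regions only.

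MADS-domain proteins bind as dimers to the CArG-box, a short A/T-rich motif, and as tetramers to pairs of such boxes. TM3 belongs to the SOC1 clade and promotes the floral transition, while J, of the SVP clade, and J2, of the SEP clade, act in the inflorescence and floral meristems. The ends of plant chromosomes carry telomeric repeats, and next to them many genomes, tomato included, hold arrays of satellite repeats. The sequence of the Moneyberg genome was not used here, so what these regions consist of is not described.

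In the lists as deposited, more TM3-specific regions lay at the chromosome ends than elsewhere. Of the 1707, 58.9% (56.6–61.2%) lay under 1 Mb from an end, where 1.35% of the 2296 J-specific regions (31 regions), 0.952% of the 315 J2-specific regions (3 regions) and 19.4% of all regions were found. Stricter lists gave lower values, 34.4% (316 members) with a fold of at least 3. With each list limited to its 4000 strongest peaks by −log10 q, the value was 20.9% (17.1–25.2%, 82 members). The share of all regions at the ends was not computed under these limits, so the 19.4% is not matched to them. Limits set on the J and J2 lists also let a region become TM3-specific by losing its J or J2 peak. How many did so was not computed. A fold limit also falls more on members, whose median folds in the full lists were lower than away from the ends. They were 3.09 against 3.81 for FUL2-TM3 and 2.83 against 4.10 for MC-TM3. The lower values are thus not the fate of a fixed set of regions. The end windows make up 2.91% of the length of the chromosomes. There were 41.9 members per Mb of these windows and 0.837 TM3-specific regions per Mb elsewhere on the 12 chromosomes. Of the 1116 regions with both TM3 peaks at the ends, 90.1% (88.3–91.8%) had no J or J2 peak, against 18.5% (17.2–19.8%) of the 3626 such regions away from the ends.

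Each of the 24 ends had at least 1 member, but the numbers were uneven, with a median of 30.5 per end. The left end of chromosome 5 had most members (168), followed by the right end of chromosome 8 (117) and the right end of chromosome 4 (73), and these 3 ends held 35.6% of all members. The right end of chromosome 1 had 1 member, the right end of chromosome 2 had 2 members, and the left end of chromosome 2 and the right ends of chromosomes 6 and 11 had 3 members each. Left ends together held 538 members and right ends 468.

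**Figure D1:**
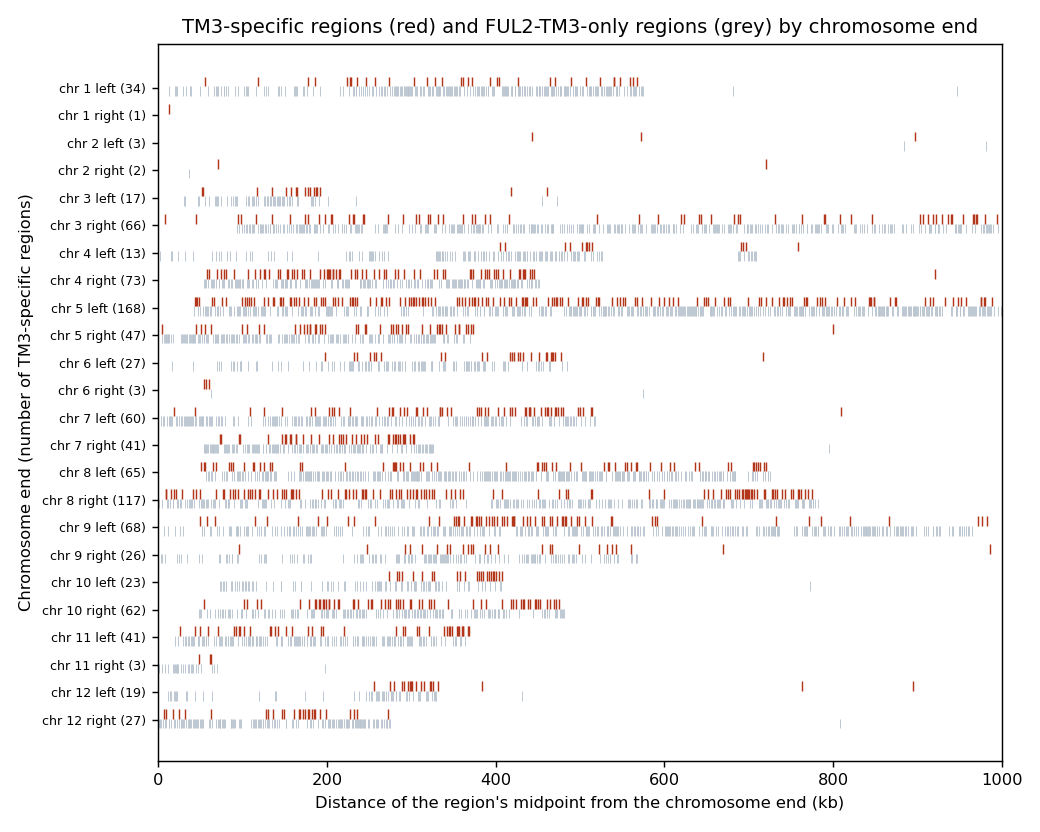
Each row is a chromosome end, the horizontal axis is the distance of a region's midpoint from that end in kb, red ticks are the 1006 members and grey ticks the 3770 regions of FUL2-TM3 alone. Both kinds are dense over much the same stretch of most ends, and 5 ends have fewer than 5 members.

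The members shared their stretch of the chromosome with many regions of FUL2-TM3 alone. At the ends, 3770 regions (72.2%) held a FUL2-TM3 peak and no other, 1006 (19.3%) were members and 98 (1.88%) held an MC-TM3 peak alone. Regions with a FUL2-TM3 peak formed dense blocks, taken here as the first run of at least 20 such regions with no gap over 100 kb, a definition made after seeing the data. A block was found at 20 of the 24 ends, and the blocks held 987 of the 1006 members. They were between 68.9 kb (right end of chromosome 11) and 1053 kb (left end of chromosome 5) long, with a median of 492 kb, and covered 10.9 Mb or 1.32% of the chromosomes. The block at the left end of chromosome 5 and that at the right end of chromosome 3 reached beyond 1 Mb, the other 18 ended before it.

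The median distance of a member from its end was 327 kb (quartiles 198 and 473 kb), and 77.6% lay within 0.5 Mb. The first 100 kb held 87 members, the 3 following bins of 100 kb held 171, 186 and 189, and the last bin held 34. Regions of FUL2-TM3 alone had a similar profile, with a median of 320 kb and 74.2% within 0.5 Mb. The member nearest to an end lay on chromosome 5 from 67127701 to 67128196, 4.80 kb from the right end, with folds of 3.30 in the FUL2-TM3 list and 3.58 in the MC-TM3 list. In the second Mb from the ends there were 45 TM3-specific regions, and in the fifth Mb there were 8.

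**Figure D2:**
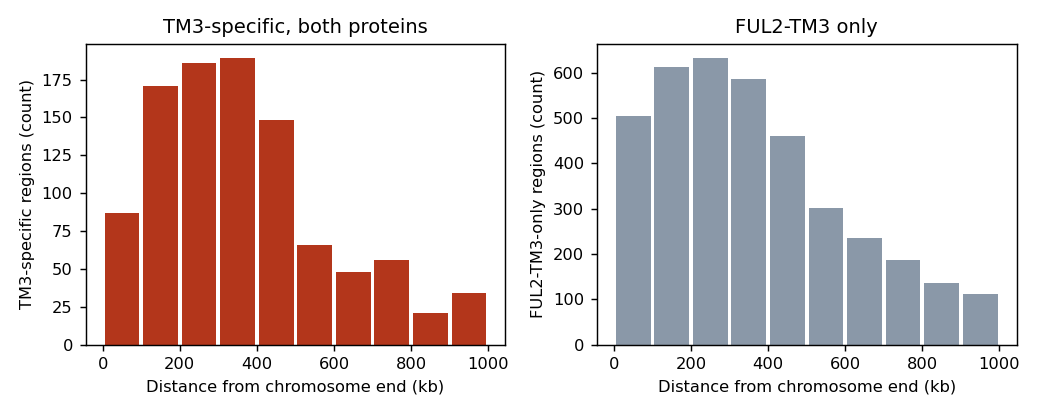
Number of members (left) and of regions of FUL2-TM3 alone (right) in bins of 100 kb by distance from the chromosome end, summed over the 24 ends. Members rise from 87 in the first bin to 189 between 300 and 400 kb and fall to 34 in the last bin.

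The limit of 1 Mb fell inside the blocks at the right end of chromosome 3 and the left end of chromosome 5. The members just inside it lay on chromosome 3 from 67451868 to 67452536, with folds of 3.16 (FUL2-TM3) and 2.57 (MC-TM3), and on chromosome 5 from 988756 to 989182, with folds of 3.39 and 3.18. The TM3-specific regions just outside it lay on chromosome 3 from 67444244 to 67444813, with folds of 2.79 and 2.47, and from 67442173 to 67443206, with folds of 3.89 and 3.83. The folds inside the limit lay within the range of those outside it.

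Neighbouring members of one end were a median of 4.68 kb apart, measured between midpoints (982 pairs, quartiles 2.37 and 9.71 kb), and TM3-specific regions away from the ends a median of 752 kb apart. Of the 982 pairs, 179 were closer than 2 kb. With fewer members under the 5 settings that kept only strong or closely matched peaks, the median spacing was 8203 to 11398 bp. All regions with a FUL2-TM3 peak at the ends, members included, were a median of 1.53 kb apart. Along this order, 27.4% (24.7–30.2%) of the members were followed by another member, against 18.2% (17.0–19.5%) of the regions of FUL2-TM3 alone. Both shares pool ends whose share of members among FUL2-TM3 regions differed, from 8.72% to 29.3% over the 19 ends with at least 10 members. They therefore do not measure local grouping alone. The closest members lay on chromosome 7 from 69111680 to 69112122 and from 69112298 to 69112844, with midpoints 0.670 kb apart. The first had folds of 2.92 (FUL2-TM3) and 3.98 (MC-TM3), and the second of 3.09 and 2.63, so that the order of the proteins differed between these neighbours. Across the 19 ends with at least 10 members, the median spacing ranged from 3.45 kb (left end of chromosome 10) to 12.1 kb (right end of chromosome 9).

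Members were wide. Their median width was 916 bp (quartiles 590 and 1447 bp, range 279 to 10050 bp), while TM3-specific regions away from the ends had a median of 367 bp (quartiles 327 and 418 bp). Of the members, 43.1% (40.1–46.2%) exceeded 1000 bp, against 2.09% (1.25–3.48%) away from the ends, and 120 members exceeded 2 kb. The width came mainly from the FUL2-TM3 peak, which had a median of 871 bp in members and 309 bp away from the ends. The MC-TM3 peak had a median of 400 bp in members and 334 bp away from the ends. In 905 of the 1006 members (interval of the share 87.9–91.7%) the FUL2-TM3 peak was the wider one, and in 69.0% (66.1–71.8%) the MC-TM3 peak lay wholly inside it. Away from the ends the FUL2-TM3 peak was the wider one in 36.4% (32.9–40.1%) of the regions, and it more often lay inside the MC-TM3 peak (30.4%) than around it (13.3%). Regions of FUL2-TM3 alone at the ends had a median width of 473 bp. The 110 end regions with both TM3 peaks and also a J or J2 peak were wide too, with a median of 692 bp and an upper quartile of 1552 bp. Where both peaks had to share at least 50% of their length, the median width of a member was 580 bp.

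**Figure D3:**
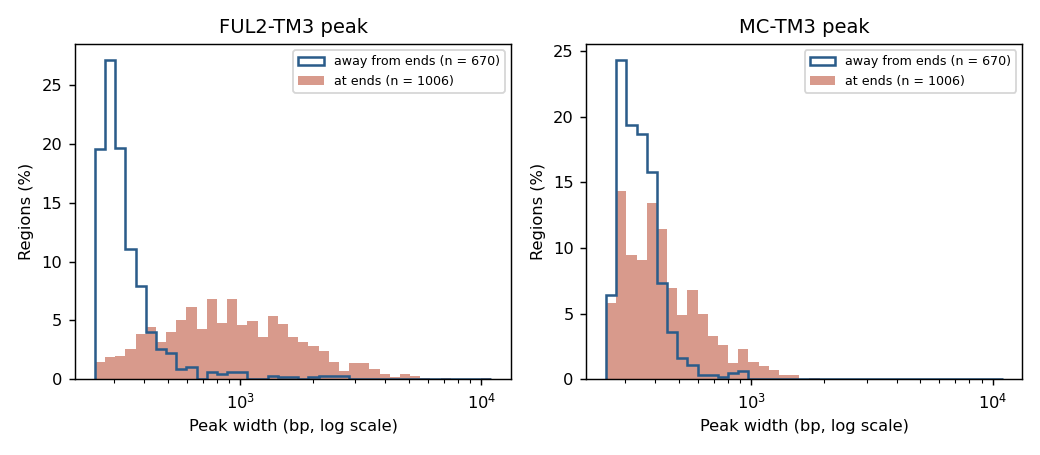
Distribution of the width of the FUL2-TM3 peak (left) and the MC-TM3 peak (right) in TM3-specific regions at the ends (filled) and away from them (line), as a percentage of the regions, on a log axis. FUL2-TM3 peaks at the ends spread around 871 bp and those elsewhere pile up around 309 bp, while the MC-TM3 peaks differ less, with medians of 400 and 334 bp.

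Some of the wide FUL2-TM3 peaks held several MC-TM3 peaks. Of the 1006 members, 911 held 1 MC-TM3 peak, 79 held 2, 12 held 3 and 4 held 4, while 988 held 1 FUL2-TM3 peak and 18 held 2. In all, the members took 1024 peaks of the FUL2-TM3 list (9.61%) and 1121 of the MC-TM3 list (9.78%). The widest member lay on chromosome 8 from 68538023 to 68548072 and was a single FUL2-TM3 peak of 10050 bp with a fold of 3.27 and 192 reads at its summit. Inside it were 4 separate MC-TM3 peaks of 270 to 453 bp, with folds between 1.86 and 2.45, the strongest of them 7371 bp from the FUL2-TM3 summit. The second widest lay on chromosome 5 from 76962 to 83871, where a FUL2-TM3 peak of 6910 bp (fold 2.95) held 1 MC-TM3 peak of 945 bp (fold 2.49). Of the 7 members wider than 5 kb, 6 lay at the right end of chromosome 8, where the median width of a member was 1373 bp, the highest of the 19 ends with at least 10 members. The lowest was 578 bp, at the right end of chromosome 9.

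The fold, the pileup over the local background at the summit as the peak caller gave it, was modest in both lists. Members had a median FUL2-TM3 fold of 3.09 (quartiles 2.75 and 3.48, range 1.86 to 5.42) and a median MC-TM3 fold of 2.83 (quartiles 2.47 and 3.31, range 1.57 to 6.76). TM3-specific regions away from the ends had higher medians, 3.81 for FUL2-TM3 and 4.10 for MC-TM3, and regions that also held a J or J2 peak away from the ends had 4.04 and 4.96. Ranked among all peaks of the same list by −log10 q, with 100 for the strongest, the members had a median percentile of 60.1 in the FUL2-TM3 list and of 15.3 in the MC-TM3 list. The −log10 q itself had a median of 13.1 in the FUL2-TM3 list both for members and for TM3-specific regions away from the ends, while in the MC-TM3 list it was 10.2 for members and 16.3 away from the ends. Of the members, 66.0% (63.0–68.9%) had an MC-TM3 peak in the weakest 25% of that list, and 41 members (4.08%) one in the strongest 25%. Ranked by fold in place of −log10 q, members were lower than regions away from the ends in both lists, with median percentiles of 39.1 against 71.3 in FUL2-TM3 and of 8.88 against 46.5 in MC-TM3.

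By fold, the order of the proteins also differed from that elsewhere. The MC-TM3 fold was the higher one in 33.3% (30.5–36.3%) of the members and in 66.0% (62.3–69.5%) of the TM3-specific regions away from the ends. Over all regions with both TM3 peaks, members included, it was the higher one in 68.7%. The choice of peaks bears on this share, which was 78.0% in the 82 members left when the 4000 peaks with the highest −log10 q were kept in each list. A fold is relative to the background and depth of its own list, and by percentile of the fold within the list MC-TM3 was the higher one in 10.1% of the members and in 24.5% of the regions away from the ends. By that measure MC-TM3 was the higher one in a minority of both groups, and only the degree differed. Between the 19 ends with at least 10 members, the share with the higher MC-TM3 fold ranged from 11.1% (right end of chromosome 12) to 74.1% (left end of chromosome 6), and at 5 of them the median fold was higher in MC-TM3. At the left end of chromosome 5, where 31 of 168 members had the higher fold in MC-TM3, the medians were 2.94 for FUL2-TM3 and 2.53 for MC-TM3. Across members, the folds of both lists had a Spearman's rho of 0.503 (n = 1006), and away from the ends of 0.595 (n = 670). The regions of a list share their libraries and input, so these are descriptions with no p-value.

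**Figure D4:**
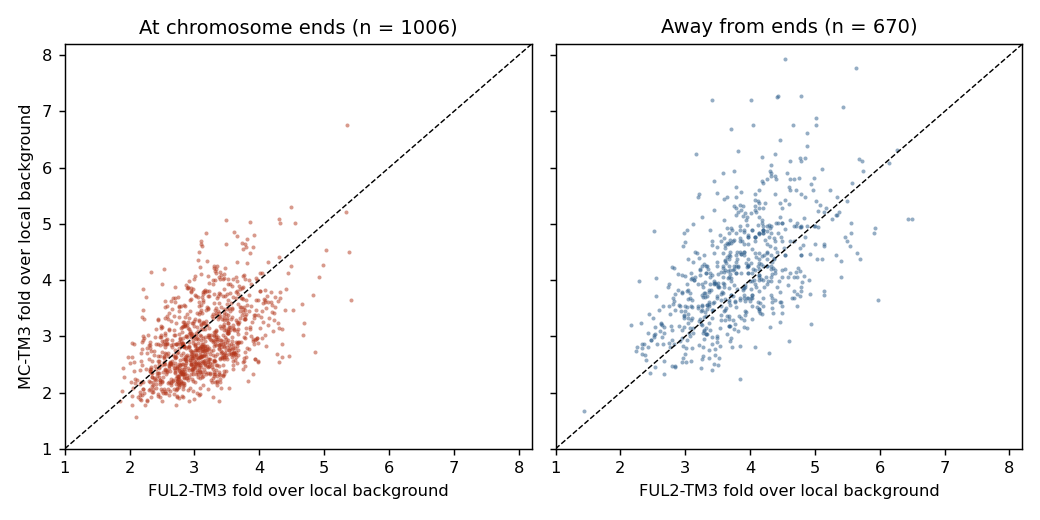
MC-TM3 fold against FUL2-TM3 fold for each TM3-specific region at the ends (left) and away from them (right), both as given by the peak caller, with the line of equal folds dashed. Most members lie below the line and under a fold of 4, and most regions away from the ends lie above it.

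At the extremes, the folds of the proteins differed by less than 2 times. The MC-TM3 fold was highest relative to FUL2-TM3 on chromosome 3 from 172918 to 174917 (4.14 against 2.32, a ratio of 1.78) and on chromosome 10 from 403771 to 405215 (a fold of 3.84 in MC-TM3, a ratio of 1.74). Both regions had a J or J2 peak close by, 330 and 286 bp away. The FUL2-TM3 fold was highest relative to MC-TM3 on chromosome 5 from 460490 to 464165 (3.38 against 1.85, a ratio of 1.83) and on chromosome 7 from 184987 to 185582 (4.86 against 2.72, a ratio of 1.79). There the nearest J or J2 peak was 176982 and 28324 bp away. Over all members the median of this distance was 50.9 kb. Whether the ratio of folds goes with it was not computed, and these 4 regions cannot show it. The median ratio of MC-TM3 to FUL2-TM3 folds was 0.906 over all members and 1.09 away from the ends.

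By the lower of its 2 percentiles, the strongest member lay on chromosome 6 from 52128657 to 52129042. It was 386 bp wide, had folds of 5.36 (FUL2-TM3) and 6.76 (MC-TM3), a −log10 q of 30.1 and 48.9, and summits 4 bp apart. It is one of the 3 members at that end, where no block was found, and a J or J2 peak lay 1443 bp away. Second was a region on chromosome 11 from 367858 to 369016, 1159 bp wide, with folds of 4.50 and 5.29 and summits 16 bp apart. It is the innermost member of the block at the left end of that chromosome. The third lay on chromosome 4 from 692830 to 693459, 630 bp wide, with folds of 3.85 and 4.48 and summits 53 bp apart. In these 3 regions the fold was higher in MC-TM3, unlike in most members. The choice bears on this, as members had a median percentile of 15.3 in MC-TM3 and 60.1 in FUL2-TM3. Ranking by the lower percentile thus favours members with strong MC-TM3 peaks.

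In the full lists, summits were farther apart than in TM3-specific regions away from the ends. The strongest FUL2-TM3 and MC-TM3 summits of a member were a median of 76 bp apart (quartiles 17 and 315 bp), against 27 bp (11 and 54 bp) away from the ends. In 453 of the 1006 members (interval of the share 42.0–48.1%) they were within 50 bp, and in 16.4% (14.2–18.8%) over 500 bp apart, against 73.3% and 1.04% away from the ends. The 110 end regions with both TM3 peaks and a J or J2 peak lay between, with a median summit distance of 48 bp (quartiles 21 and 153 bp). The median distance in members was 37.5 bp with a −log10 q of at least 10 and 34 bp with a fold of at least 3. It was 29 bp with 4000 peaks per list and 35 bp where the peaks overlapped by at least 50%. For regions away from the ends the distance was not computed under these settings, so their 27 bp in the full lists is not matched.

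The reads behind the folds were recovered from the fold and p-value of each peak, and this was possible for 98.8% of the members in the FUL2-TM3 list and 91.3% in the MC-TM3 list. At the summit of a member a median of 101 treatment reads (quartiles 86 and 127) lay in the FUL2-TM3 list and 85 (72 and 103) in the MC-TM3 list. TM3-specific regions away from the ends had medians of 78 and 76 reads. Members thus had more reads than regions away from the ends in both lists, beside their lower folds. The local background, taken from the input, was a median of 2.04 times the common background of the list at the FUL2-TM3 summits of members and 1.90 times at the MC-TM3 summits, against 1.19 and 1.18 times away from the ends. Of the members, 83.9% (81.5–86.1%) had more than 1.5 times the common background in the FUL2-TM3 list and 82.6% in the MC-TM3 list, against 25.7% and 25.8% away from the ends. The 110 end regions with both TM3 peaks and a J or J2 peak had medians of 103.5 reads and 1.62 times the common background in the FUL2-TM3 list. The backgrounds of both lists were alike at the same member, with a median ratio of 1.01 and a Spearman's rho of 0.912 over the 907 members solved in both, which share one kind of control. The part of this input signal in the peaks was not tested.

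Ends with the highest background had many reads and low folds. The median background over the common one was highest at the right end of chromosome 8 (2.92), followed by the left end of chromosome 9 (2.79), the left end of chromosome 5 (2.62) and the right end of chromosome 12 (2.50). Their members had medians of 121 to 129 FUL2-TM3 reads and FUL2-TM3 folds between 2.82 and 3.04. The lowest background of the 19 ends, 1.41, was at the left end of chromosome 4, whose 13 members had a median of 95 reads and the highest median fold, 3.77. The background is the divisor of the fold, so a fold and a background of the same peak are not independent.

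Whether an end region of FUL2-TM3 also had an MC-TM3 peak went with the strength and width of the FUL2-TM3 peak. Members made up 20.5% (19.4–21.7%) of the 4900 end regions with a FUL2-TM3 peak. With regions that also held a J or J2 peak counted in, 22.8% of the 4900 had an MC-TM3 peak. Over the whole genome, with these 4900 included, 45.2% of the 10636 regions with a FUL2-TM3 peak had one. Among the end regions with no J or J2 peak, members were 128 of the 1423 (interval of the share 7.62–10.6%) in the weakest 20% of the FUL2-TM3 list by −log10 q and 51.5% (46.8–56.2%) of those in the strongest 20%. By reads at the FUL2-TM3 summit the share rose from 5.76% under 70 reads to 49.4% at 140 reads or more. By width of the FUL2-TM3 peak it rose from 7.50% (6.26–8.97%) under 400 bp to 72.7% (65.3–79.0%) at 2000 bp or more. A wider peak also has more bases in which an MC-TM3 peak can overlap it. By distance from the end it showed no such trend and lay between 13.3% and 24.4% in bins of 100 kb. Between the 19 ends with at least 10 members, members were 8.72% (left end of chromosome 4) to 29.3% (right end of chromosome 8) of the regions with a FUL2-TM3 peak. Regions of FUL2-TM3 alone had a median fold of 2.89 and 85 reads, and a background of 1.79 times the common one.

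**Figure D5:**
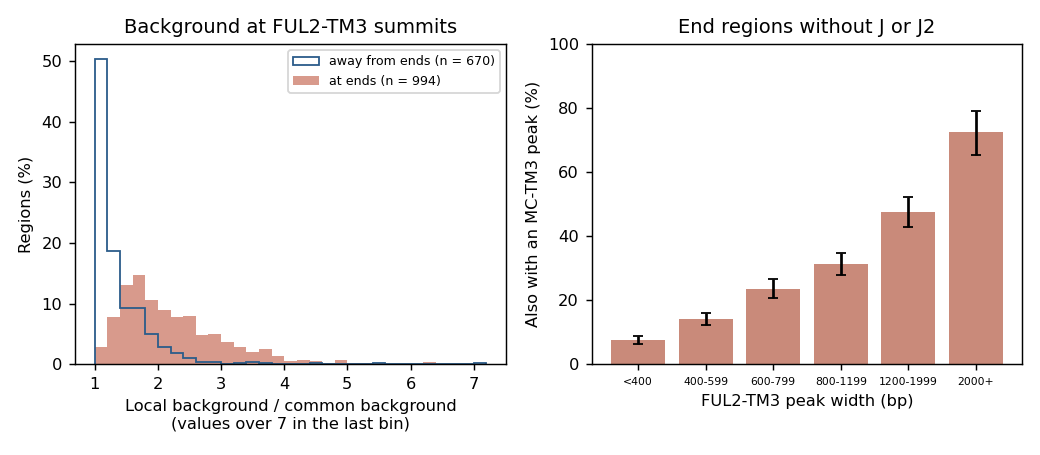
Left, local background at the FUL2-TM3 summit over the common background of the list, for TM3-specific regions at the ends (filled, n = 994) and away from them (line, n = 670), as a percentage of the regions. Right, percentage of end regions with a FUL2-TM3 peak and no J or J2 peak that also held an MC-TM3 peak, by width of the FUL2-TM3 peak, with 95% Wilson intervals; it rises from 7.50% to 72.7%.

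The J and J2 complexes had few peaks in the same stretches. Inside the blocks, FUL2-J had 8.36 peaks per Mb and MC-J 4.78, against 12.6 and 13.2 outside them, and FUL2-J2 had 1.75 and MC-J2 0.551, against 6.04 and 5.73. MC-TM3 had 117.1 peaks per Mb inside and 12.4 outside the blocks. Members lay a median of 50.9 kb from the nearest J or J2 peak, and 807 (80.2%) had none within 10 kb, whereas the median was 13.8 kb for TM3-specific regions away from the ends. At 27 members such a peak lay within 1 kb without touching the region. The median background of the 91 FUL2-J peaks inside the blocks was 1.72 times the common one (1.14 outside), that of the 52 MC-J peaks 1.42 times (1.24 outside), and those of the 19 FUL2-J2 and 6 MC-J2 peaks 1.04 times each (1.06 outside for both). The lists differ in more than the partner. FUL2-TM3 is the one list whose peak names come from an alignment merged with Samtools, and the treatments of the TM3 complexes were the shallowest, 1.44 (FUL2-TM3) and 1.29 (MC-TM3) times the input against 1.53 to 2.18 for the others. For both TM3 lists the partner cannot be told apart from the lower depth, and for FUL2-TM3 alone also not from the merge. The part of each was not tested.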

How the data were processed

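DAP-seq libraries of 6 complexes and of an input without plasmid were sequenced by the authors, trimmed with Trim Galore, mapped to the Moneyberg genome with HISAT2, merged, as the peak names record, and used for narrow peak calling with MACS2, whose versions are not given in the sources used here. The deposited lists give per peak the position and summit, the fold (a ratio of pileup to local background), and −log10 values of p and q, the last used here as the score of strength. Read counts and replicates are not part of them. The lowest −log10 q of the 6 lists lay between 4.01 and 4.22.

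Regions were built from positions in pandas 2.3.3 under Python 3.11.15. Arithmetic used numpy 2.4.6, intervals and the solving of formulas scipy 1.17.1, and plots matplotlib 3.10.9. Book-ended peaks were not joined. Where a region held several peaks of a list, the one with the highest −log10 q gave its fold, summit and width. Reads and background were solved from MACS2's formulas for fold (pseudocount of 1) and p, with backgrounds of at least 5 and a pileup taken as a whole number of reads within 0.02. One read was worth 0.694 (FUL2-TM3) and 0.773 (MC-TM3) reads of the input, and the common background equalled 10.8 and 11.1 input reads. Both steps were tested on simulated data. Spacing was measured within an end.

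Regions named one by one were the 3 strongest by the lower percentile of both lists, the 2 widest, the one nearest to an end, the 2 on each side of 1 Mb, the 2 with the most unequal folds in each direction and the closest pair, and the ends named were those with most and fewest members and the extremes of a range. The members and the alternatives were chosen with earlier results of these data known. The genome sequence and its annotation were not used here, so no motif, gene or sequence is given.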

Additional observations from a re-analysis of the deposited data

Results flagged for a closer look

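Among the 6 lists, which are one list per complex and not replicates, FUL2-TM3 stood far from the rest in the share of its placed peaks with a summit under 1 Mb from a chromosome end, 47.6%, followed by MC-TM3 with 12.5% and by 1.67% to 2.05% for the J and J2 lists. The density of peaks inside the blocks at the ends was 451.0 per Mb for FUL2-TM3 against 117.1 for MC-TM3. The blocks were defined as dense runs of FUL2-TM3 regions, so the high density of this list follows from the definition and is no finding. For the share near an end, chance flags about 1 in 20 such groups, and the 5 measures searched share the same peaks.

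The unplaced sequence, outside the comparisons above, held 31 TM3-specific regions, 7.60% (95% Wilson interval 5.40–10.6%) of its 408 regions, against 3.16% of the 21224 placed regions away from the ends. The share over all regions, members included, was 6.36% and lay inside that interval.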

How the results depend on the processing

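Settings that kept only strong or closely matched peaks left fewer members. A −log10 q of at least 10 left 464 members, 4000 peaks per list 82, a fold of at least 3 316, overlaps covering 50% or more of each peak 473, and summits within 100 bp 562. In the same order, the share of TM3-specific regions at the ends was 44.7%, 20.9%, 34.4%, 41.8% and 47.9%, the median spacing 8203, 11347, 11398, 9100 and 8311 bp, the median MC-TM3 fold 3.24, 4.18, 3.53, 2.91 and 2.90, the share with the higher MC-TM3 fold 40.9%, 78.0%, 49.1%, 39.3% and 30.2%, and the median summit distance 37.5, 29, 34, 35 and 19 bp. The first 3 gave medians of 14, 3 and 12.5 members per end. The median FUL2-TM3 fold was 3.39, 3.80 and 3.57 under them and 3.16 with summits within 100 bp. The median width was 1075 bp with 4000 peaks, 853 bp with a fold of at least 3, 580 bp with 50% overlap and 793 bp with summits within 100 bp. Keeping peaks by fold or −log10 q raises the remaining folds by construction. It also thins the J and J2 lists, so regions can become TM3-specific by losing a J or J2 peak, which bears on the share at the ends. For the rest the cause was not tested.

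An end window of 0.5 or 2 Mb changed the share at the ends to 45.8% and 61.6%. Joining peaks up to 200 bp apart gave a median width of 1003 bp and a FUL2-TM3 fold of 3.13. By percentile of −log10 q the members' medians were 60.1 (FUL2-TM3) and 15.3 (MC-TM3), and by percentile of the fold 10.1% were higher in MC-TM3. Leaving out the left end of chromosome 5, chosen after seeing the data, gave a share at the ends of 54.5%, an MC-TM3 fold of 2.88, 36.3% with the higher MC-TM3 fold, 97 FUL2-TM3 reads and backgrounds of 1.89 (FUL2-TM3) and 1.81 (MC-TM3). A tolerance of 0.1 reads, also added later, gave an MC-TM3 background of 1.82. The other 46 of 101 values stayed inside the interval of the reported value, or, for the number of members, within 1.5 times of it. No paired analysis was possible because each complex has a single list of merged libraries, and leaving out a replicate was not possible for the same reason. Depth per library was not used here.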
